A study of Caenorhabditis elegans with 80 samples.

Results

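The data are log ratios between recombinant inbred (RI) strains of Caenorhabditis elegans that were raised at 16 °C, from 40 of the 80 arrays of the study, chosen as all arrays whose label gives 16 °C. The RI strains descend from a cross of N2, the Bristol laboratory strain, with CB4856, a wild isolate of Hawaii, and each strain carries its own mosaic of the parental genomes. Whole hermaphrodite worms of 78 RI strains were collected at 72 h of age, in the L3 larval stage, from several dishes per strain. RNA of 1 strain was labelled with Cy3 and that of a genetically distant strain with Cy5, and both were hybridised to the same array of oligonucleotide probes. The question of the comparison is how far transcript levels differ between strains in this one environment, and which genes differ together.

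Each array holds a different strain pair, written here as Cy3 strain/Cy5 strain, so that there are no replicates of a pair and no value of a single pair has an error. WN38 and WN80 stand on 2 arrays each, and every other strain stands on 1. Each of the 23232 probes gave 1 ratio per array with none missing, and 17447 of them could be assigned to a single gene each (16367 different genes). The ratio was read as log2, so that a ratio of 2 or -2 is a 4-fold difference. Which dye is in the numerator is not stated in the sources used here, and no strain of a pair is therefore called the higher one. The sign can be compared between genes of 1 array and for 1 gene between arrays. A ratio also holds no level, so that the L3 stage could not be checked against levels of its markers.

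As background, RI strains sort natural variants of their parents into new combinations, and a variant near a gene can change its own transcript while a variant in a regulator can change many transcripts elsewhere. Worms of 1 population also differ in how far they have developed, and genes of the molting cycle, of sperm formation and of yolk production are switched on at set times of larval and adult life. Furrow collagens such as dpy-7 are made in each molting cycle, major sperm proteins are made when hermaphrodites form sperm around the fourth larval stage, and the vitellogenins, which are yolk proteins, in the adult intestine. In whole worms, fewer cells of a type and less RNA per cell cannot be told apart. A difference in transcript level likewise cannot be told apart from a sequence difference under the probe, although long probes were chosen to lessen such effects. The paper nevertheless estimates that many of the loci it mapped close to the affected gene are false positives. It gives such sequence differences as a likely explanation.

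The arrays had all been scaled alike, with a median absolute ratio of 0.593 in each, but their tails differed. The SD over all probes was highest in WN29/WN78 (1.48), WN57/WN32 (1.47) and WN15/WN35 (1.44), and lowest in WN76/WN59 (1.04), WN8/WN41 (1.06) and WN68/WN37 (1.06). A ratio of 2 or more in either direction was given by 10.6% of the probes in WN29/WN78, 12.2% in WN57/WN32 and 9.44% in WN15/WN35, against 5.27% in WN76/WN59, 5.57% in WN8/WN41 and 5.32% in WN68/WN37. The number of arrays limits the precision, and the signal over background of the probes is not known.

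**Figure D1:**
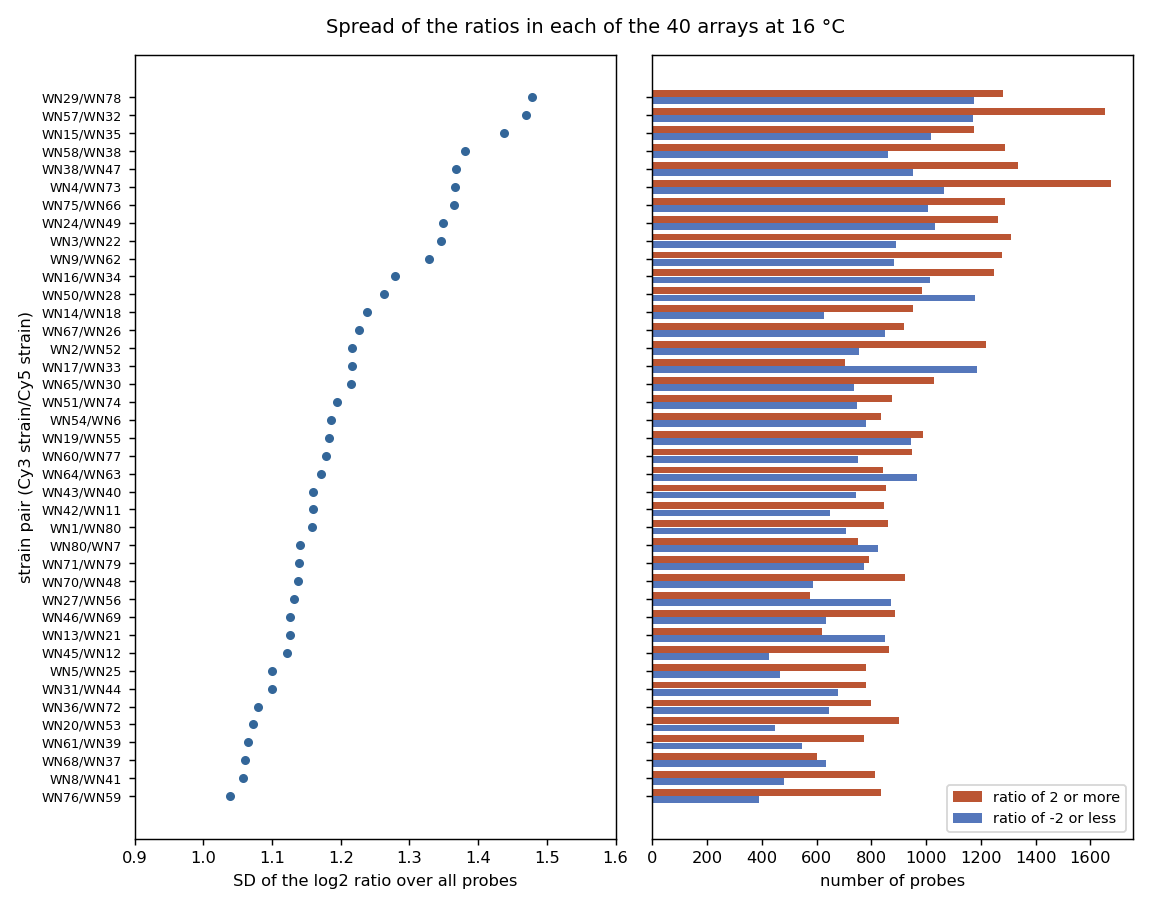
Each row is 1 strain pair at 16 °C. The left panel shows the SD of the log2 ratio over 23232 probes, on an axis that does not start at 0, and the right panel shows the number of probes with a ratio of 2 or more and of -2 or less. The SD ran from 1.04 in WN76/WN59 to 1.48 in WN29/WN78.

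Ratios were moderately spread for most probes and very widely spread for a few. Without replicates of a pair, strain difference and measurement noise cannot be told apart in the spread of a single probe. The SD of a probe over the 40 pairs had a median of 1.05, with a lower quartile of 0.78 and an upper quartile of 1.33. It reached 2 for 710 probes, which is 3.06% of all probes and 3.03% of the named ones, and 3 for 85 probes. Probes of chromosome V passed an SD of 2 most often, 196 of 4497 (4.36%), followed by chromosome II with 116 of 3063 (3.79%) and chromosome IV with 83 of 2805 (2.96%). On the other 3 chromosomes the share was 1.94% (III), 1.83% (X) and 1.74% (I). Measured by the scaled median absolute deviation, which takes little notice of a few extreme pairs, 302 probes reached 2, of which 274 were among the 710.

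Where a gene has several probes, the wide probes were alike and the others were not. Over the 24 combinations of probes of the same gene in which both had an SD of at least 2 (20 genes), the median Pearson r over the 40 arrays was 0.571, and 17 had an r above 0.5. Over all 1297 such combinations (878 genes) the median r was 0.112, and 393 were below 0. Examples chosen after their values were seen are ilys-3, an invertebrate-type lysozyme gene (r = 0.931 between its probes), T20D4.11 (r = 0.902), and F10D2.8 (r = -0.536), the only negative value among the 24.

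The widest ratios of all belonged to F19B2.5 on chromosome V. Its ratio had a lowest value of -12.56 in WN3/WN22, a median of -0.64 and a highest value of 11.18 in WN38/WN47, with an SD of 6.0. WN9/WN62 (-12.52) and WN51/WN74 (-10.26) stood at the same end as WN3/WN22, while WN67/WN26 (9.27) and WN27/WN56 (7.59) stood at the other end. In 25 of the 40 pairs the ratio lay past 2 in one direction or the other, and in 7 it lay within 1 of 0. The chemoreceptor gene srw-85, which lies on the same chromosome within 1 Mb, ran from -8.64 in WN9/WN62 over a median of -0.85 to 7.51 in WN27/WN56. The ratios of srw-85 and F19B2.5 had an r of 0.915 over the arrays.

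Next came pud-2.1 and pud-2.2, close neighbours on chromosome V whose products are known as proteins upregulated in daf-2 mutants, the mutants of the insulin receptor. The ratio of pud-2.1 ran from -10.06 in WN65/WN30 over a median of 0.33 to 10.74 in WN38/WN47. For pud-2.2 the lowest value was -10.59 in WN65/WN30, the median 0.67 and the highest value 11.16 in WN38/WN47. Both had their extremes in the same pairs, and their r was 0.986. Probes of these neighbours may also read each other's transcripts, so that the 2 genes may not be independent signals. The third member of the list with a probe, pud-4, ran from -9.18 in WN3/WN22 over 0.50 to 9.40 in WN29/WN78, and thus had its extremes in other pairs. Its SD was 3.95, and 3.69 without WN29/WN78.

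On chromosome II, 5 of the widest genes, all within 5 Mb of each other, varied together, and 1 of them ran the opposite way. B0281.5 ran from -11.79 in WN38/WN47 over a median of 0.45 to 7.89 in WN67/WN26. sdz-24, a gene known as a zygotic transcript that depends on the transcription factor SKN-1, ran from -8.98 in WN64/WN63 over -0.71 to 8.83 in WN38/WN47. The lectin gene clec-10 ran from -9.54 in WN15/WN35 over -0.43 to 8.0 in WN38/WN47. These genes thus met in WN38/WN47, where B0281.5 was at its lowest and sdz-24 and clec-10 were at their highest. cct-3, which encodes a subunit of the CCT chaperonin, ran from -7.16 in WN2/WN52 over -0.52 to 8.42 in WN3/WN22. ZC204.12 ran from -7.90 in WN64/WN63 over 0.32 to 7.66 in WN3/WN22. The r of B0281.5 was -0.922 with cct-3, -0.826 with ZC204.12, -0.806 with clec-10 and -0.802 with sdz-24, while the other combinations of these genes had an r between 0.734 (clec-10 with cct-3) and 0.889 (sdz-24 with clec-10).

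Chromosome IV held a block of C-type lectin genes, a large family of secreted or membrane proteins with a carbohydrate-binding fold. clec-72 ran from -8.20 in WN38/WN47 over a median of 0.06 to 9.60 in WN3/WN22. clec-76 ran from -10.46 in WN38/WN47 over -0.03 to 8.60 in WN9/WN62. R07C12.2, within 1 Mb of both, ran from -10.53 in WN38/WN47 over -0.41 to 6.26 in WN3/WN22. WN38/WN47 was the lowest pair for all 3, with an r of 0.869 between the lectin genes and of 0.771 (clec-72) and 0.791 (clec-76) with R07C12.2.

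Among the 190 combinations of the 20 widest genes, 53 joined genes of the same chromosome. An absolute r of at least 0.7 was found for 17 of the 190, and 16 of these joined genes of the same chromosome. The exception joined C23G10.11 on chromosome III with T22F3.11 on chromosome V, at an r of 0.953. C23G10.11 ran from -8.32 in WN60/WN77 over 0.25 to 8.96 in WN58/WN38, and T22F3.11 from -8.11 in WN60/WN77 over 0.47 to 8.10 in WN20/WN53. F54E2.1 on chromosome V ran from -10.28 in WN50/WN28 over -1.05 to 5.67 in WN13/WN21 and had an r of 0.755 with pud-4. The glutathione S-transferase gene gst-27 on chromosome II ran from -10.77 in WN3/WN22 over -0.25 to 7.78 in WN51/WN74. Of the remaining wide genes, C39B5.10 (III) ran from -7.20 to 8.35, R03H10.6 (II) from -8.66 to 6.86, and T07D3.4 (II) from -12.83 to 3.34. T07D3.4 differed from the others in that its median was -4.64.

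**Figure D2:**
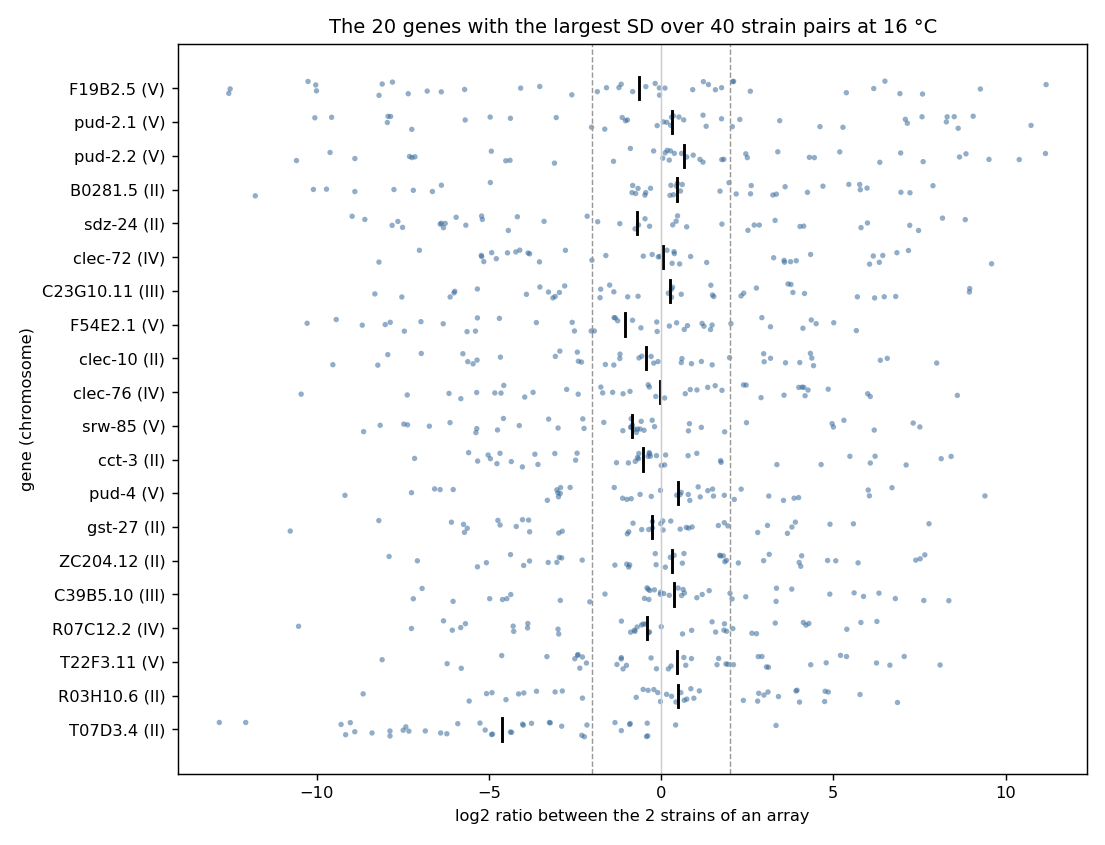
Each point is the log2 ratio of 1 of the 40 strain pairs, for the 20 genes with the largest SD, with the chromosome in parentheses. The black bar is the median over the arrays and the dashed lines mark -2 and 2. F19B2.5 spans -12.56 to 11.18, and T07D3.4 alone has its median, -4.64, far from 0.

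Likeness between wide genes fell with distance along the chromosome. Of the 710 wide probes, 523 were located in the WBcel235 annotation. Among combinations of different genes within 20 kb of each other, the median absolute r over the 40 arrays was 0.471, and 77 of 228 had an absolute r of at least 0.7 (33.8%). The share was 19.8% between 20 and 100 kb, 6.79% between 100 kb and 1 Mb, and 1.34% between 1 and 5 Mb. Beyond 5 Mb it was 0.46%, much like the 0.48% of genes on different chromosomes (502 of 104653). These shares are descriptions over genes that share the same arrays, and near neighbours of a gene family can also share probe sequence.

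**Figure D3:**
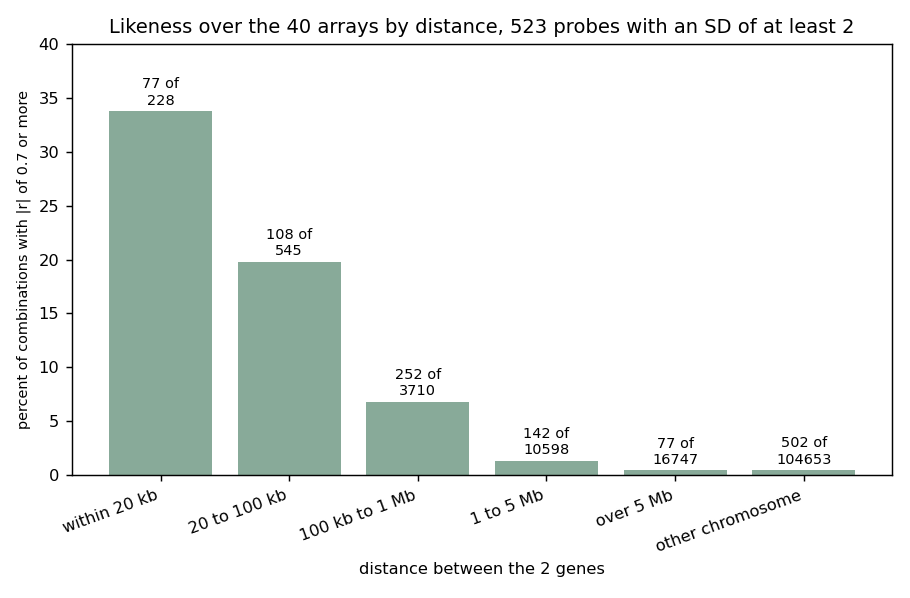
Bars give the percent of combinations of different genes with an absolute r of at least 0.7 over the 40 arrays, by distance between the genes, for 523 probes with an SD of at least 2, and the counts stand above the bars. The percent falls from 33.8 within 20 kb to 0.46 beyond 5 Mb.

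Among the named genes at the ends of each of the widest arrays, some were narrow elsewhere and others were wide in many arrays. In WN29/WN78 both kinds were found. The proteasome ATPase gene rpt-4 had a ratio of 10.02 there and lay between -0.77 and 1.35 in the 39 other arrays. unc-112, a kindlin gene of muscle attachment, had 9.78 there and -1.30 to 2.09 elsewhere, and let-653, which encodes a zona pellucida domain protein of tube linings, had 9.40 there and -1.83 to 1.37 elsewhere. The SD of rpt-4 was 1.63 with this array and 0.45 without it. far-7, a fatty acid and retinol binding protein gene (9.18), and at the other end fbxa-15 (-8.52), ebp-1, which encodes a protein of growing microtubule ends (-7.78), the collagen gene col-140 (-7.50), ets-7 (-7.46) and M03F8.5 (-7.39) completed its extremes beside pud-4. Of these, fbxa-15 passed 2 in either direction in 23 other arrays, pud-4 in 21, col-140 in 13, far-7 in 8 and ets-7 in 7.

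WN57/WN32 showed the same mix. The chemoreceptor gene srw-103 had 11.01 there and -2.52 to 4.46 elsewhere, and srw-143 had -8.91 there and -2.77 to 2.09 elsewhere. The neuropeptide gene nlp-4 had 9.68 there but passed 2 in either direction in 23 other arrays, as did K06H6.1 (10.58 in WN57/WN32). nstp-7 (9.92), C18D4.3 (9.55), Y105C5B.3 (-8.81), the chemoreceptor gene srg-9 (-8.62), the F-box gene fbxa-216 (-8.40) and ZK1025.3 (-8.10) were the others.

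In WN15/WN35 the lowest ratio was that of F02D10.2 (-13.61), followed by hsd-1, a hydroxysteroid dehydrogenase gene (-12.22), srh-5 (-11.06), F49F1.9 (-10.95) and gsp-3, a phosphatase gene of sperm (-10.81). The highest were math-6 (10.44), srg-1 (10.29), Y53F4B.20 (10.05), sol-2, which encodes a partner of glutamate receptors (9.75), and mltn-11 (9.70). sol-2 lay between -0.76 and 1.71 in every other array. Several others leaned the same way elsewhere. Their medians over the other arrays were 3.21 for srg-1, 1.76 for math-6, -2.24 for F49F1.9, -1.71 for F02D10.2, -1.43 for hsd-1 and -1.05 for srh-5. Those of mltn-11 (0.27), gsp-3 (-0.17) and Y53F4B.20 (0.00) were small. In another array srg-1 reached 10.24 and hsd-1 -12.14.

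In the narrowest arrays named genes still had ratios past 6 in either direction. In WN76/WN59 Y110A2AL.10 had -10.45 and T04D1.2 6.93, with nspa-8 (6.89), F19B2.5 (6.5), W06H8.2 (5.67) and gen-1, a nuclease gene (5.63), at the high end and ent-5, a nucleoside transporter gene (-9.10), T07D3.4 (-9.03), F32G8.2 (-8.42) and F54E2.1 (-8.02) at the low end. In WN8/WN41, where unnamed probes lay further out (-9.38 and 7.86), the named genes ran from ent-5 (-6.70) and F32G8.2 (-6.53) to mab-9, a T-box transcription factor gene (6.89), C30E1.6 (6.42) and nhr-83 (6.38). WN68/WN37 ran from sdz-10 (-8.88) and T13A10.2 (-7.05) to T26F2.1 (9.10), F07B7.14 (7.85) and irld-17 (7.83), with ints-1, a subunit gene of the Integrator complex, at 7.41. ent-5 and F32G8.2 were thus among the lowest named genes in WN76/WN59 and in WN8/WN41. Over the other arrays the medians of ent-5, F32G8.2 and T07D3.4 were also far below 0 (-4.90, -5.67 and -4.38 beside WN76/WN59).

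Some probes had a mean ratio away from 0 over the arrays. In limma's moderated test of the mean ratio against 0, with Benjamini-Hochberg adjustment over all probes, 570 probes had a positive mean (2.45%) and 627 a negative one (2.7%). prmt-4, a protein arginine methyltransferase gene, had the lowest mean, -6.35 ± 0.46 (SE, n = 40 arrays, adjusted p = 1.2e-13), and was below 0 in all 40 arrays. F32G8.2 (-5.68), dmsr-7, a neuropeptide receptor gene (-5.16), T07D3.4 (-4.79) and F53H1.3 (-4.74) followed. F42H10.9 had the highest mean, 4.44 ± 0.36 (SE, n = 40 arrays, limma adjusted p = 4.6e-12), followed by evl-14, a cohesin cofactor gene (4.30), T04D1.2 (3.83), C05G5.5 (3.71) and srg-1 (3.47). F42H10.9 and evl-14 were above 0 in all 40 arrays. Not all of these probes kept 1 sign, and srg-1 was above 0 in 34 arrays and below it in 6. The cause of the lean was not tested.

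Gene families differed in how wide their ratios were. Vitellogenin genes were the widest of the larger lists: 7 of 11 probes had an SD of at least 2, and their median SD was 2.56, against 1.02 over all named probes. MATH and BTB genes, whose products bring proteins to ubiquitin ligases, had 20 of 126 probes past 2 (15.9%, median SD 1.38), and F-box genes, another such family, 29 of 368 (7.88%, median SD 1.27). Cuticle collagens other than those of the furrows had 24 of 164 (14.6%), antimicrobial genes 8 of 75 (10.7%), UDP-glucuronosyltransferases 5 of 63 (7.94%), C-type lectins 16 of 241 (6.64%), glutathione S-transferases 3 of 48 (6.25%), sperm genes other than major sperm proteins 4 of 66 (6.06%) and cytochrome P450 genes 4 of 79 (5.06%). All 3 pud probes passed. These shares stand beside 3.03% of all named probes.

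Heat shock proteins had 1 of 18 (5.56%). Nearer to that background or below it were chemoreceptors (38 of 1327, 2.86%), nuclear hormone receptors (7 of 267, 2.62%), hedgehog-related genes (2 of 83, 2.41%), germline genes (1 of 40, 2.5%) and neuropeptides and insulins (1 of 108, 0.926%). None of the 18 major sperm protein probes, 5 furrow collagens, 20 molting genes, 32 eggshell and oocyte genes, 68 ribosomal proteins, 32 proteasome subunits, 33 respiratory chain genes, 26 histones and 31 muscle genes had an SD of 2. Ribosomal proteins were the narrowest list, with a median SD of 0.51. A wide family did not mean a shared direction: the median r between different genes of a list was 0.01 for F-box genes, 0.02 for MATH and BTB genes and 0.00 for C-type lectins, beside 0.00 over all named genes.

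Inside the wider lists most of the widest members were spread over many pairs. Among the MATH and BTB genes, bath-28 ran from -7.41 to 4.66 over a median of -0.02, math-20 from -7.24 to 7.26 over -0.05, and bath-21 from -1.73 to 8.48 over 0.83. In the F-box list fbxa-156 ran from -7.54 to 6.55 over a median of 0.08, and fbxa-15, at a median of -3.43, from -8.52 to 3.76. col-2 led the collagens, from -10.87 to 3.95 over a median of -1.06, followed by col-8 (SD 2.84) and col-36 (SD 2.79). Of the detoxification genes, ugt-25 ran from -10.21 to 6.24 over 0.19, ugt-28 from -6.64 to 6.13, cyp-37B1 from -5.77 to 5.16 and gst-32 from -5.38 to 4.51. The neuropeptide gene nlp-4 (-7.05 to 9.68) had an SD of 3.50 in a list whose median SD was 0.92. In contrast the ribosomal gene with the largest SD, rps-19, had an SD of 1.33, with ratios of 5.37 in WN75/WN66, 4.46 in WN65/WN30 and 2.31 in WN58/WN38 and 31 arrays within 1 of 0. Its SD without WN75/WN66 was 1.05. Some narrow lists had a member whose spread rested mostly on 1 array. The SD of the muscle gene myo-6 was 1.78 with WN70/WN48 and 0.88 without it. For the germline gene pgl-2 the SD was 1.49 with WN46/WN69 and 0.58 without it.

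Within some narrow lists many genes nevertheless varied together. Major sperm protein genes, which encode the cytoskeletal protein of crawling sperm, had a median r of 0.726 between different genes, with 70.7% of the combinations above 0. The other combinations were too many to come from 1 probe, so that not all members ran with the rest. The member with the largest SD, msp-36, stood at 7.69 in WN3/WN22 and at 3.92 in WN29/WN78, where the median of the list was -1.88. Their probes are near-identical copies and may read each other's transcripts, so that single members are uncertain. The median of the 18 probes ran from -2.38 in WN17/WN33 over 0.29 to 1.68 in WN43/WN40. In WN17/WN33, where 8.14% of all probes passed 2 in either direction, 14 of 18 major sperm protein probes and 26 of 66 other sperm probes had a ratio of -2 or less. In WN43/WN40 (6.87% of all probes past 2), 1 of the 18 and 16 of the 66 had a ratio of 2 or more. Sperm genes thus differed strongly between the strains of a few pairs, and the other sperm genes followed the major sperm proteins over the arrays (r = 0.879 and rho = 0.801 between the medians of the lists, n = 40 arrays).

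Vitellogenins spanned the greatest range of any list with more than 3 probes. Their median ratio ran from -4.35 in WN54/WN6 over -0.09 to 5.51 in WN9/WN62. In WN54/WN6 10 of 11 probes had a ratio of -2 or less, where 6.96% of all probes passed 2 in either direction, and in WN9/WN62 8 of 11 had a ratio of 2 or more (9.3% of all probes past 2). vit-3 ran from -5.50 in WN29/WN78 over 0.30 to 9.04 in WN43/WN40, vit-4 from -5.61 in WN29/WN78 over -0.02 to 7.89 in WN43/WN40, and vit-5 from -5.41 in WN54/WN6 over 0.34 to 7.44 in WN43/WN40. These genes shared WN43/WN40 as their highest pair, and probes of vit genes may also read each other's transcripts.

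Furrow collagens, which shape the circular folds of the cuticle, varied less but together, with a median r of 0.478. Their median ratio ran from -1.53 in WN16/WN34 over 0.05 to 1.22 in WN19/WN55, pairs in which 9.74% and 8.32% of all probes passed 2 in either direction. dpy-3 ran from -2.03 to 2.27 over a median of 0.36, dpy-9 from -2.99 to 1.93 over -0.19, and dpy-2 from -1.53 to 2.09 over 0.03. The median of the molting genes followed that of the furrow collagens (r = 0.841, rho = 0.822, n = 40 arrays). let-653 led the molting genes by SD only because of WN29/WN78, and nas-36 (-5.06 to 4.61) and lin-42, a timing gene (-4.49 to 3.10), came next. Ribosomal proteins had a median r of 0.376, and their median ratio ran from -0.82 in WN5/WN25 over 0.00 to 0.80 in WN27/WN56.

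Set against each other over the 40 arrays, the medians of the sperm, yolk and oocyte lists ran together, and those of the furrow collagens and molting genes ran against them. The median of the vitellogenins had an r of 0.586 with the major sperm proteins, 0.698 with the other sperm genes and 0.586 with the eggshell and oocyte genes, and of -0.453 with the furrow collagens and -0.548 with the molting genes. The larger list of other cuticle collagens did not follow the furrow collagens (r = -0.146): its median had an r of 0.378 (rho = 0.233) with the vitellogenins and 0.402 (rho = 0.208) with the major sperm proteins. Other lists ran less strongly against the furrow collagens, with an r of -0.367 for the major sperm proteins and -0.292 (rho = -0.228) for the eggshell and oocyte genes. Such opposition was not particular to sperm, yolk and oocyte lists. The neuropeptides and insulins had an r of -0.489 with the furrow collagens and -0.520 with the molting genes, but of -0.021 with the vitellogenins. The r of the vitellogenins with the ribosomal proteins was -0.141. These values describe lists measured in the same worms and on the same arrays. Whether the strains of a pair differed in developmental age at collection was not tested.

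To see which genes vary with a chosen gene, the ratio of every other probe was correlated with that of 6 genes over the arrays, with the two-sided p of Pearson's r adjusted over 23231 probes by the Benjamini-Hochberg method. For dpy-7, whose own ratio ran from -1.53 in WN16/WN34 over 0.09 to 2.03 in WN5/WN25, 188 probes varied the same way (0.809%) and 44 the opposite way (0.189%). lpr-4 (r = 0.811, rho = 0.841) and lpr-5 (r = 0.759, rho = 0.844), which encode lipocalins of the outer matrix, led the first set, followed by K10D3.4 (r = 0.736), clec-180 (r = 0.735) and mlt-11, a molting gene (r = 0.708). Of the lists, 2 of 4 other furrow collagens, 4 of 20 molting genes, 2 of 18 heat shock proteins and 2 of 83 hedgehog-related genes were among the probes that varied with dpy-7. Of the 164 probes of other cuticle collagens, 1 varied with dpy-7 and 4 varied against it. F21A3.2 (r = -0.660), F13D11.3 (r = -0.639) and glod-4, a glyoxalase domain gene (r = -0.635), led the opposite set. The count of 232 probes was 119 by limma's moderated regression and 134 without the 4 arrays of recurring strains. It fell to 133 without WN80/WN7, 146 without WN31/WN44 and 140 without WN20/WN53.

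The set of msp-10 was the largest of the 6 by Pearson's r, though by Spearman's rho it held 296 probes and that of dpy-7 332. The ratio of msp-10 ran from -2.26 in WN17/WN33 over 0.31 to 2.14 in WN43/WN40, and 414 probes varied with it (1.78%), against 29 that varied the opposite way (0.125%). They included 13 of 17 other major sperm protein probes and 26 of 66 other sperm probes, but 0 of 68 ribosomal proteins, and most of the 414 are on no sperm list. msp-51 (r = 0.857), msp-56 (r = 0.847), msp-32 (r = 0.840), msp-76 (r = 0.831) and msp-59 (r = 0.815) came first. On the opposite side were F53B3.5 (r = -0.645), haf-1, a mitochondrial ABC transporter gene (r = -0.579), and the serpin gene srp-3 (r = -0.559). By chromosome they numbered 113 of 2804 located probes on IV, 90 of 2471 on I, 89 of 3063 on II, 46 of 2221 on III, 46 of 4497 on V and 8 of 2301 on X. Without WN64/WN63 the count of 443 in both directions was 281, and without WN17/WN33 it was 295.

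For vit-2 (-5.34 in WN29/WN78, median 0.57, 7.13 in WN43/WN40), 231 probes varied the same way (0.994%) and 57 the opposite way (0.245%). vit-5 (r = 0.967), vit-4 (r = 0.960), vit-3 (r = 0.939), D1054.10 (r = 0.914) and vit-6 (r = 0.888) led. The 231 also held 16 of 164 collagens outside the furrow list, 9 of 32 eggshell and oocyte genes, 8 of 18 major sperm protein probes and 14 of 66 other sperm probes. C50D2.6 (r = -0.653), the collagen gene col-128 (r = -0.627) and C14B9.2 (r = -0.622) ran most strongly the other way, as did 1 furrow collagen, 1 molting gene and 3 of 63 UDP-glucuronosyltransferases. The total of 288 was 106 after removal of the first 2 principal components. It was 174 without WN17/WN33, 172 without WN29/WN78 and 182 without WN9/WN62. In WN29/WN78, where 10.6% of all probes passed 2 in either direction, 8 of 11 vitellogenin probes had a ratio of -2 or less.

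The 3 other genes had few companions. With pud-2.1 only pud-2.2 passed (0.0043% the same way and 0.0% the opposite way), and their probes may read each other's transcripts. The next genes did not pass: F53C11.1 on the same chromosome (r = 0.641, adjusted p of the Pearson test over all probes = 0.097), nhr-225 (r = 0.570), hst-3.1 (r = 0.566), osm-9 (r = 0.548) and, with negative sign, the catalase gene ctl-1 (r = -0.578), gst-27 (r = -0.578) and flr-1 (r = -0.560). Without WN24/WN49 or without WN54/WN6 a further probe passed, 2 in all. At an unadjusted p of Pearson's r under 0.05 there were 1140 of 23231 probes. That is about the share which such a limit passes where no probe is related to the gene.

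btb-14, a BTB gene on chromosome II, ran from -4.60 in WN1/WN80 over 0.28 to 4.30 in WN58/WN38. Of the other probes, 9 varied with it (0.0387%) and 3 against it (0.0129%), and all 11 that could be located lie on chromosome II. phat-8 (r = 0.745), Y38E10A.14 (r = 0.729), F12A10.2 (r = 0.661), bath-28 (r = 0.644) and F59E12.6 (r = 0.642) varied the same way, and lips-16 (r = -0.674), Y57A10A.1 (r = -0.656) and nspe-4 (r = -0.633) the opposite way. The set was small and unsteady. It held 5 probes without WN2/WN52, 4 without WN58/WN38, 7 without WN65/WN30, 6 without WN24/WN49, 7 without WN31/WN44 and 3 without either WN64/WN63 or WN19/WN55.

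The myosin gene unc-54 of body wall muscle was narrow, from -0.73 in WN4/WN73 over 0.08 to 1.64 in WN60/WN77. Of the other probes, 3 unnamed ones varied with it (0.0129%) and none the opposite way (0.0%), and by limma 1 probe passed. No muscle gene was among the 3. At an unadjusted p of Pearson's r under 0.05 there were 1636 of 23231 probes. alg-1, clec-126, calu-1, F35H10.10 and glh-4 (r between 0.552 and 0.572) and, with negative sign, flp-19, F07C4.6 and cutl-3 (r between -0.639 and -0.627) came nearest without passing. The count ranged from 0, without WN42/WN11 or WN60/WN77, to 8 without WN1/WN80. It was 6 without WN54/WN6, 5 without WN71/WN79, WN45/WN12 or WN9/WN62, and 1 without WN5/WN25.

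Among the 15 combinations of these 6 genes, 2 passed a permutation test with adjustment over the 15. msp-10 and vit-2 varied together (r = 0.527, permutation p = 0.00062, adjusted p = 0.0093), but by rank the relation was weaker (rho = 0.402, permutation p = 0.01, adjusted p = 0.075), and r was 0.418 without the 2 arrays farthest from the median of msp-10. dpy-7 and vit-2 varied in opposite directions (r = -0.430, permutation p = 0.0055, adjusted p = 0.041, rho = -0.471, permutation p = 0.0026, adjusted p = 0.039), with an r of -0.455 without the 2 arrays farthest from the median of dpy-7. Without the 4 arrays of recurring strains this second relation no longer passed (r = -0.422), nor did it after removal of the first 2 principal components (r = -0.327). Leaving out any single array kept r between 0.474 and 0.565 for the first relation and between -0.485 and -0.380 for the second. pud-2.1 and btb-14, on different chromosomes, had an r of -0.322 that did not pass (permutation p = 0.041, adjusted p = 0.20, rho = -0.305, permutation p = 0.056).

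**Figure D4:**
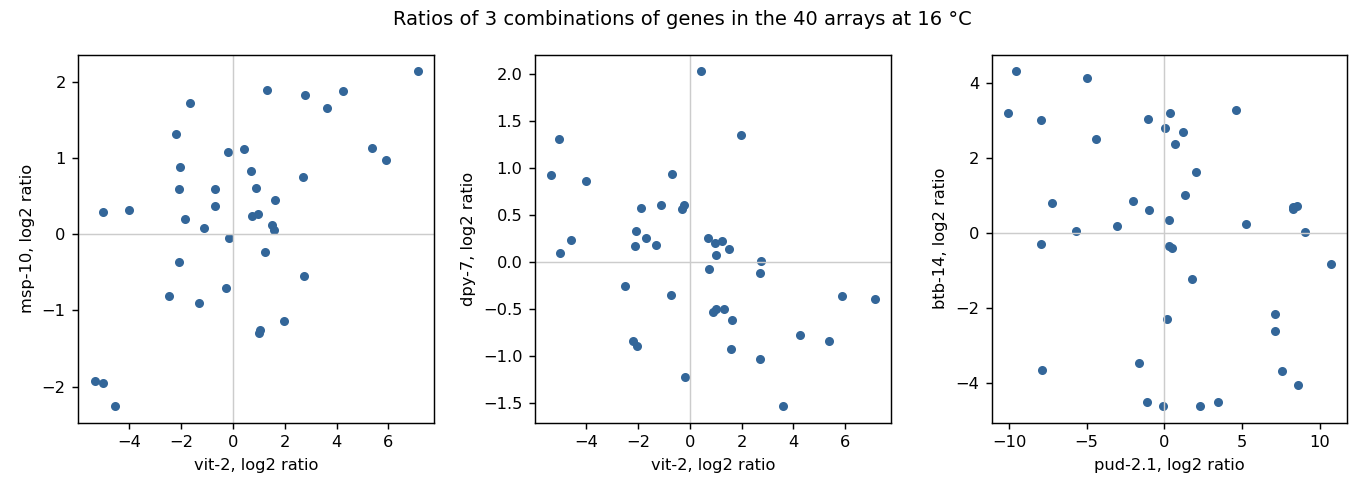
Each point is 1 of the 40 strain pairs at 16 °C, and both axes are log2 ratios. The horizontal axis is vit-2 in the left and middle panels, with msp-10 (r = 0.527) and dpy-7 (r = -0.430) on the vertical axis, and pud-2.1 in the right panel, with btb-14 (r = -0.322).

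Apart from chosen genes, the 12589 probes with an SD of at least 1 were joined by average linkage wherever the mean r between them was at least 0.7. This gave 65 groups of at least 5 probes and 19 of at least 10, which together held 382 probes. The groups were formed from the ratios themselves and have no test. The largest had 68 probes, 67 of them named, with a median r of 0.755. ZC477.7, nspd-3, C17F3.1, F58A6.9 and T28H11.7 stood at its centre. It held 9 of the 18 major sperm protein probes and 10 of the 66 other sperm probes, beside 68 of all 12589 joined probes. Lists are counted here and below with all their probes, also those with an SD under 1, which could enter no group. The mean ratio of this largest group ran from -2.35 in WN17/WN33 and -2.24 in WN64/WN63 over a median of 0.54 to 2.03 in WN43/WN40. Of its 67 located probes, 23 lie on chromosome IV. A further group of 19 probes, with msp-76 and nspd-8 (named after their values were seen), had the same highest pair, and the mean ratios of these groups had an r of 0.917.

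Of the 11 vitellogenin probes, 6 fell into a pair of groups, which held 21 and 19 of all 12589 joined probes. In the first, of 21 probes, 4 of them other cuticle collagens and 2 vitellogenins, col-106 and col-129, the uterine lumen protein gene ule-4, F54F7.3 and col-184 were the most central, with vit-6, a probe of vit-3 and perm-2, a gene of the eggshell's permeability barrier, beside them. Its mean ratio ran from -3.39 in WN29/WN78 over 0.08 to 3.93 in WN9/WN62. The second, of 19 probes, held vit-2, vit-3, vit-4, vit-5, ule-3, ule-5 and col-8 (genes named after their values were seen), and ran from -5.0 in WN54/WN6 over 0.08 to 5.28 in WN43/WN40. The mean ratios of these groups had an r of 0.799 with each other, and the first had an r of 0.708 with the sperm group.

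Another group of 38 probes held genes of all 6 chromosomes. T22F3.11, scl-2, F21C10.10, C06G3.3 and C23G10.11 were its most central genes. The metallothionein gene mtl-1, fmo-2, which encodes a flavin monooxygenase, the alcohol dehydrogenase gene adh-1, acs-2, an acyl-CoA synthetase gene, the lipase genes lipl-2 and lipl-3, the lysozyme gene ilys-3 and the lectin genes clec-60 and clec-61 were further members, picked out after their values were seen. Of the lists it held 3 of 75 antimicrobial probes, 2 of 241 C-type lectins and 1 of 79 cytochrome P450 genes, beside 38 of all 12589 joined probes. Such small counts say little about these lists. The mean ratio ran from -3.58 in WN60/WN77 and -2.46 in WN19/WN55 over -0.16 to 3.75 in WN31/WN44 and 4.03 in WN20/WN53. Ratios of mtl-1 ran from -5.01 in WN60/WN77 to 5.99 in WN31/WN44, and those of fmo-2 from -4.83 in WN60/WN77 to 5.46 in WN20/WN53. The mean of this group had an r of 0.048 with the sperm group and of 0.292 with the group of vit-2. Its extreme pairs were thus different ones.

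In contrast to these, 3 groups lay wholly or mostly on a single chromosome. The group of 25 probes around math-40, math-41 and math-20 held 13 of the 126 MATH and BTB probes, beside 25 of all 12589 joined probes. All 21 of its located probes lie on chromosome II. It contains sdz-24, clec-10, cct-3 and ZC204.12 of the block described above. Its mean ratio ran from -4.07 in WN64/WN63 over -0.15 to 5.18 in WN38/WN47, with 9 arrays at 2 or more, 11 at -2 or less and 17 within 1 of 0. The other local groups were chosen after their values were seen. The group of 17 probes with fbxa-64, T20D4.11 and C17B7.9, of which 16 are located and all on chromosome V, ran from -4.44 in WN3/WN22 over 0.11 to 4.35 in WN9/WN62. The group of 12 probes with the nuclear hormone receptor genes nhr-244, nhr-245 and nhr-73 had 9 of 11 located probes on chromosome I and ran from -4.80 in WN57/WN32 over 0.07 to 3.79 in WN38/WN47. Members of such families are near copies of each other, and their probes may read each other's transcripts.

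The remaining groups among the 12 largest had few named genes or rested on 1 array. A group of 28 unnamed probes ran from -4.38 in WN5/WN25 over -0.17 to 4.67 in WN27/WN56 and stayed within 1 of 0 in 24 arrays. Groups of 18 and 12 probes with 3 named probes each, among them tba-4 and srlf-36 (named after their values were seen), had an r of 0.903 with each other. The group of 27 probes around rpt-4, Y73F8A.5, C25H3.3 and unc-112 had a mean ratio of 7.39 in WN29/WN78 and lay between -0.72 and 0.35 in all other arrays. Without WN29/WN78 this group was gone, while 48 of the 68 probes of the sperm group, 36 of the 38 around scl-2, 24 of the 25 around math-40, 19 of the 21 around col-106 and all 28 unnamed probes were still together. Of the group with msp-76 only 6 of 19 were.

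**Figure D5:**
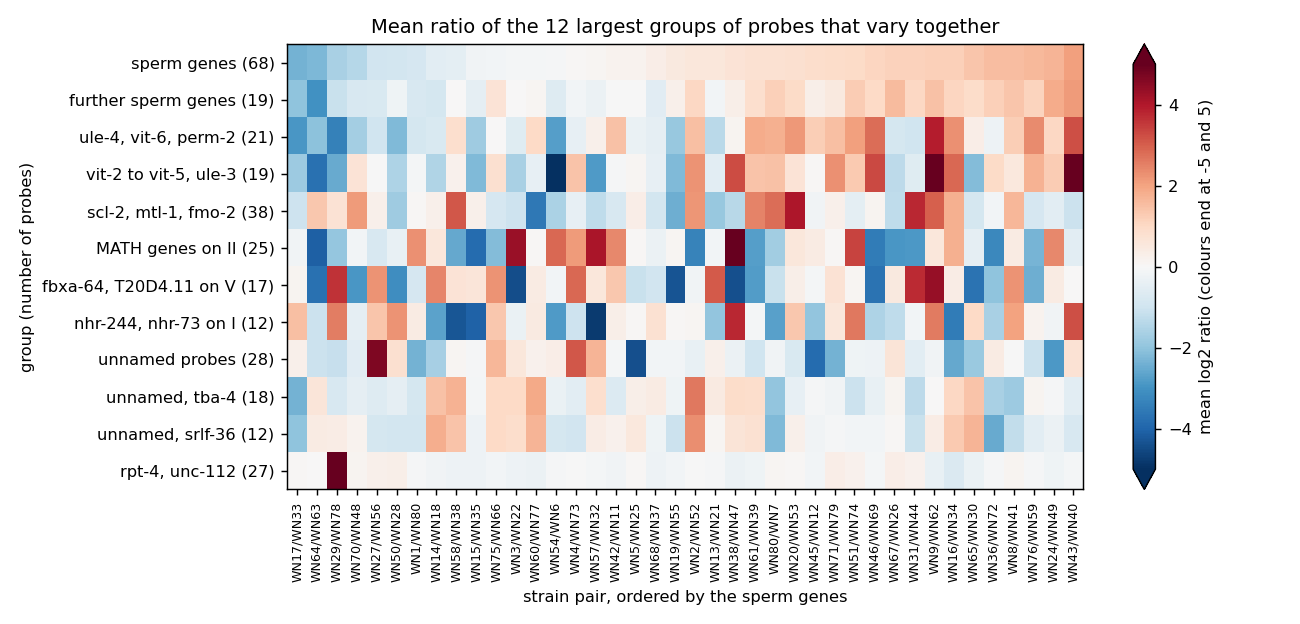
Rows are the 12 largest groups of probes that vary together, with their number of probes, and columns are the 40 strain pairs in the order of the sperm group's mean ratio. Colour is the mean log2 ratio, ending at -5 and 5. The groups of sperm genes and those with vit genes share much of their order, the local groups on II, V and I do not, and the group of rpt-4 is coloured in WN29/WN78 alone.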

How the data were processed

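The authors deposited normalized log ratios of 2-colour arrays, read here as log2, for 23232 probes and 40 arrays at 16 °C. Limma is named, with no version, in the processing notes of the submitters, and the base of the log, the dye in the numerator and the background correction are not given in the sources used here. Array medians ranged from -0.02 to 0.04. Probes were named through the platform table (17447 with 1 gene, 5785 with none) and joined to the WBcel235 annotation by gene identifier (17358), used only for symbols, chromosomes and distances between genes.

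The SD of each probe was computed over the arrays. The mean ratio was tested with limma 3.58.1 in R 4.3.3. Relations to 6 genes used the two-sided p of Pearson's r with Benjamini-Hochberg adjustment over all probes at 0.05, and relations between these genes used two-sided permutation tests with 100000 resamples (Python 3.11.15, numpy 2.4.6, scipy 1.17.1, pandas 2.3.3). Both treat arrays as independent, although 4 of them share a strain with another. Groups came from average linkage. The 26 gene lists were defined by symbol, and each list's level in an array is the median of its probes. The genes and lists were chosen with earlier results of these data known. Scripts were tested on simulated ratios.

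Genes are named by a rule: the 20 with the largest SD, the 5 highest and 5 lowest of the 3 widest and 3 narrowest arrays, the 5 most positive and 3 most negative relations to each of the 6 genes, the 5 most central probes of the 6 largest groups, the 5 highest and 5 lowest mean ratios and the 3 widest members of each list. Not all are printed, and genes outside the rule are marked. Alternatives were another measure of spread, scaling of every array, a threshold of 0.01, moderated variance, ranks, leaving out arrays, removal of the first 2 principal components (5.92% and 4.92% of the variance) and other linkage limits. Strain genotypes were not used here.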

Additional observations from a re-analysis of the deposited data

How the results depend on the processing

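The count of probes with an SD of at least 2 was 302 by the scaled median absolute deviation, and 1197 mean ratios past the threshold became 601 at an adjusted p of 0.01. The set of dpy-7 had 134 probes without the arrays of recurring strains and 119 by limma's moderated regression. The set of pud-2.1 had 2 and that of vit-2 106 after removal of 2 principal components. The set of unc-54 had 0 by Spearman's rho, 6 after scaling of every array, 9 without the arrays of recurring strains, 0 after removal of principal components and 1 by limma. Of the relations between the 6 genes, 1 passed by rank, 1 without the arrays of recurring strains and 1 after removal of principal components. The groups of at least 10 probes numbered 46 at an r of 0.6 and 7 at an r of 0.8. The cause of these shifts was not tested, apart from the stricter limits themselves. Leaving out each array in turn gave 133 to 267 probes for dpy-7, 281 to 508 for msp-10, 1 to 2 for pud-2.1, 3 to 15 for btb-14, 172 to 369 for vit-2 and 0 to 8 for unc-54. The other alternatives left each of these counts within 1.5 times its value. Leaving out the array with the largest SD for the groups, and leaving out each array for the relations, were chosen after seeing the data. No paired analysis was possible because the results rest on the 16 °C arrays alone, each with another strain pair. Pairing with the arrays of the same strain pairs at 24 °C was not made here. The signal over background is not known, which limits what can be said of dim probes.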

Other observations

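On the 40 arrays at 24 °C the SDs of the same probes had a rank correlation of 0.721 with those at 16 °C, across 23232 probes, which are not independent replicates, and 382 of the 710 probes with an SD of at least 2 at 16 °C were also among the 1088 at 24 °C.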
